A study of Mus musculus with 9 samples.

Results

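The comparison set 2 clones of mouse cells reprogrammed with 3 factors, iPS-MEF3-2 and iPS-MEF3-3, against 1 sample of embryonic stem (ES) cells, which made up 3 of the 9 samples of the series. These 3 samples were chosen by their labels, and a gene was called only where both clones stood apart from ES in the same direction. The clones, called induced pluripotent stem (iPS) cells, came from mouse embryonic fibroblasts (MEF) that carry a bgeo knock-in at Fbx15 (Fbxo15), a gene active in ES cells, and they were kept under G418, the drug to which bgeo gives resistance, for 16 days. The ES cells are labelled Fbx15-null and were grown on STO cells, a fibroblast feeder line, so all 3 samples carry an altered Fbx15 locus. iPS-MEF3-2 and iPS-MEF3-3 are single clones, and the labels do not name the factors. Separate cultures are not stated for them, and p-values below therefore reflect the spread of these arrays alone, part of which may be technical. A clone made with 4 factors, a clone made with 10 factors and Fbx15-null MEF from E13.5 embryos are given beside the results where they help to place a value. The 4- and 10-factor clones were also under selection for 16 days. The label of the 10-factor clone names the same Fbx15 bgeo knock-in MEF as its source, and the 4-factor clone is labelled FBX15-iPS. RNA was labelled with 1 dye and each sample was hybridised to 1 array.

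Pluripotent stem cells are held in that state by a network of transcription factors in which Pou5f1 (Oct4), Sox2 and Nanog occupy many of the same enhancers, together with Esrrb, Klf2, Klf4, Tfcp2l1 and others of the naive, inner cell mass-like state. Reprogramming introduces a few such factors into somatic cells and selects those in which an ES cell gene has become active. Clones selected on Fbxo15 are known for an incomplete return to the ES cell state, and Fbxo15 itself is not needed for pluripotency.

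Each level below is a signal divided by the 75th percentile of its array, so that 1 is the signal at that percentile. "Well above background" is the scanner program's own call for a spot. The share of probes well above background was 56.9% for iPS-MEF3-2, 56.3% for iPS-MEF3-3 and 57.5% for ES. The clones were scanned in another session than ES, so scan and cell type cannot be told apart in any value here. The 4- and 10-factor clones were scanned with ES, and their values stand beside those of the 3-factor clones for that reason, with the caution that all these differences share the single ES array. The clones were close to each other, with a Pearson's r of 0.993 across 12880 probes, against 0.877 and 0.884 with ES. The robust SD of the log2 difference over 4442 bright probes was 0.194 between the clones, 0.661 for iPS-MEF3-2 against ES and 0.605 for iPS-MEF3-3 against ES. These are correlations across probes, which are not independent replicates.

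The ES array stood apart from the others on chromosomes 8 and 11. Over genes well above background on the 6 arrays of the clones, ES and MEF, the median log2 difference of the 3-factor clones from ES was -0.366 for 465 genes of chromosome 8 and -0.394 for 696 genes of chromosome 11, against -0.00406 for all 8206 genes. The next lowest chromosome was 7, at -0.167, and the others lay between -0.0934 and 0.193. The same chromosomes were low against ES in the other samples, at -0.451 and -0.369 for the 4-factor clone, -0.469 and -0.414 for the 10-factor one and -0.458 and -0.5 for MEF, comparisons that share the ES array. Set against MEF in place of ES, the 3-factor clones had medians of 0.0584 on chromosome 8 and 0.123 on chromosome 11, beside 0.0735 for all genes. The cause was not tested. Counts are therefore also given without the genes of these chromosomes.

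More genes were lower than higher in the 3-factor clones. With a rule of at least 5-fold in both clones and the brighter side well above background, 320 of 12887 probes were higher (2.48%) and 621 were lower (4.82%) than in ES, and 941 were apart in all (7.3%). Among named genes 265 of 10523 were higher (2.52%) and 544 were lower (5.17%), or 809 in all (7.69%), with a median difference of 9.15-fold on the high side and 10.7-fold on the low side. Without chromosomes 8 and 11 the named genes numbered 242 higher and 441 lower. The excess of lower probes depends on scaling: with each array scaled to its median, which moved the median of all genes by 0.519 on the log2 scale, 533 probes were higher and 407 lower, or 56.7% of the calls on the high side, against 34% here.

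These calls carry no test, since ES has 1 array. In limma, over 5 arrays with the 4- and 10-factor clones as 1 further group and the lone ES array assumed to vary like the clones, 1024 of 13312 probes rose (7.69%) and 1585 fell (11.9%) at a Benjamini-Hochberg adjusted p under 0.05, which made 2609 in all (19.6%), and 5315 had an unadjusted p under 0.05. Among named genes 7.67% rose and 11.9% fell, and 19.5% did either. Of the probes at least 5-fold apart, limma also called 55.3% of the higher and 52.7% of the lower ones. The limma calls rest on having both clones: without iPS-MEF3-2 there were 0, with 3152 at an unadjusted p under 0.05, and without iPS-MEF3-3 there were 0, with 3330. Of the 1585 that fell, 526, Smc1b among them, were at the floor of the scale on the 4 iPS arrays and show no spread there. Others, such as Zfp42, Nanog and Ooep, were at the floor in both 3-factor clones. These clones add no measured spread for such genes, and the p-values depend on how close the 4- and 10-factor clones are. Median scaling gave 1623 higher and 869 lower. The gap between the 4- and 10-factor clones also enters the spread. Gcnt3 was at 9.11 and 8.94 in iPS-MEF3-2 and iPS-MEF3-3, and at 0.0609 and 2.69 in the 4- and 10-factor clones. Its SE was 2.87 on the log2 scale. Whether a gene passed limma therefore depends in part on clones outside the comparison with ES. Below, "rose" and "fell" are used only of genes that passed limma.

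Just inside the 5-fold rule were Tmem176a and Paqr7 on the high side, at 5.018-fold and 5.023-fold in the clone nearer to ES, with Celsr1 and Olfr1145 just outside at 4.993-fold and 4.996-fold. On the low side Exd1 and Igdcc3 lay just inside at 5.001-fold each, and Tex101 and Hyal1 just outside at 4.987-fold each.

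**Figure D1:**
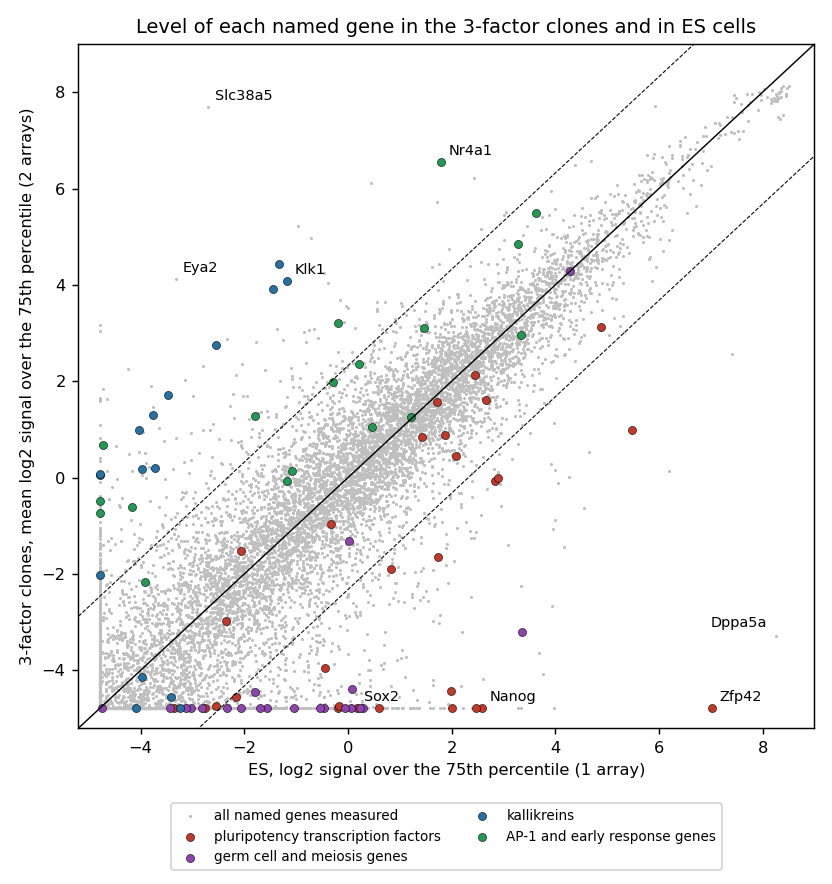
Mean log2 level of each named gene in the 2 three-factor clones (vertical axis) against its log2 level in ES (horizontal axis), both scaled to the 75th percentile of the array, with a floor at -4.78. The solid line marks equal levels and the dashed lines a 5-fold difference. Below the lower dashed line lie 15 of 29 pluripotency factors and 13 of 21 germ cell genes, many at the floor, and above the upper one 12 of 16 kallikreins.

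Much of the pluripotency network was far lower in the 3-factor clones. Of 29 measured pluripotency transcription factors, 15 were at least 5-fold lower in both clones and 0 were higher, with a median log2 difference of -2.73 (all named genes -0.0866), and by limma 15 fell and 14 did not pass. Counts for this and each later list stand beside 5.17% lower and 2.52% higher over all named genes. Of the 29, 8 were measured through ES alone, as were 10 of 25 ES cell markers and 10 of 38 signalling genes below, and such genes could only come out lower. The sequences before the transcription start of Zfp42, Nanog and Sox2 are shown because these genes were bright in ES and not well above background in either clone, and because each holds TTTGCAT, the core of the octamer that POU factors such as Pou5f1 bind. Capitals mark the motif, searched on both strands in the 250 bases before the start (RefSeq, build GRCm38.p6). The stretches are chr8:43307010-43307259, minus strand for Zfp42, chr6:122707239-122707488, plus strand for Nanog and chr3:34649745-34649994, plus strand for Sox2.
Zfp42: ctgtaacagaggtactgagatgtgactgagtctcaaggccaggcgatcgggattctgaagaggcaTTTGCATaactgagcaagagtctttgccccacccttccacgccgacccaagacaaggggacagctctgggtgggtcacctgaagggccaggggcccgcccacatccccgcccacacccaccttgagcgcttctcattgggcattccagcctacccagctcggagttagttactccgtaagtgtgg
Nanog: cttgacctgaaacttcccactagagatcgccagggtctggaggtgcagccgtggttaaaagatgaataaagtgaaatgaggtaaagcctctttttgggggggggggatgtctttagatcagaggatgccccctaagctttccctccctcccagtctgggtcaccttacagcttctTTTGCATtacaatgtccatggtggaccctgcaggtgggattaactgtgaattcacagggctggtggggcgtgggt
Sox2: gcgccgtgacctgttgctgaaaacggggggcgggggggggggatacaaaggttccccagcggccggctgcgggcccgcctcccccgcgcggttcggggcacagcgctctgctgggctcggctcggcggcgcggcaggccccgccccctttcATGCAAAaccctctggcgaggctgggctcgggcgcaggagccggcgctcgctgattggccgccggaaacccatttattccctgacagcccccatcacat
Of 13 lower factors with a promoter in the table, these 3 hold the motif (23.1%), against 4.65% of all 27025 genes there and 4.47% of 403 lower genes that matched. The motif was chosen with the promoters in view, and a match is a description of the letters only.

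Zfp42 (Rex1), a zinc finger protein used as a marker of ES cells, had a level of 0.000775 in iPS-MEF3-2 and 0.00641 in iPS-MEF3-3, against 130.7 in ES. It was at least 5493-fold lower in the clones and fell by limma (adjusted p = 0.0289). Bounds of this kind set the bright side against the lowest signal that is well above background on each dim array. The probe's own signal is used where it is higher. A probe can lie above that lowest signal and still not pass the background call, so these bounds are nominal and can be too high. With the floor used for the calls, Zfp42 was 3599-fold, Nanog 166-fold and Sox2 31.2-fold lower. Nanog, a homeodomain factor of the core network, was at 0.00331 in iPS-MEF3-2 and 0.00409 in iPS-MEF3-3, against 6.04 in ES, at least 254-fold lower (limma adjusted p = 0.0373). Sox2, the HMG box partner of Pou5f1, was at 0.00783 and 0.00786 in the clones in the same order, against 1.13 in ES, at least 47.6-fold lower, without passing limma (adjusted p = 0.1). The 4-factor clone held Sox2 at 1.47 and the 10-factor clone at 0.276. Zfp42 and Nanog were far below ES in these clones too, at 0.12 and 0.179 with 4 factors and 0.557 and 0.584 with 10. Over the list of pluripotency factors, the median log2 difference from the same ES array was -1.6 for the 4-factor clone and -1.48 for the 10-factor clone. It was -2.73 for the 3-factor clones.

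Esrrb and Nr5a2, nuclear receptors of the network, were not well above background in either clone. Esrrb was at least 233-fold lower than its ES level of 5.54, and Nr5a2 at least 169-fold lower than its ES level of 4.02, and neither passed limma (adjusted p = 0.0847 and 0.11). Tfcp2l1, a factor of the naive state, was at 0.0597 in iPS-MEF3-2 and 0.0357 in iPS-MEF3-3, against 3.94 in ES, and fell (84.7-fold, limma adjusted p = 0.0315). Klf2, a Krüppel-like factor, kept a measurable level of 2.21 in iPS-MEF3-2 and 1.79 in iPS-MEF3-3, against 44.7 in ES, and fell 22.5-fold (limma adjusted p = 0.0296). Klf2 and Zfp42 lie on chromosome 8, where the ES array stood apart by the far smaller median given above. Klf5 fell 6.63-fold, Tcea3 10.3-fold and Rif1, a chromatin protein, 7.45-fold. Gbx2 was at least 63.5-fold lower and fell. Utf1, a chromatin factor, was well above background in 1 of the 2 clones, at 0.0179 in iPS-MEF3-2 and 0.0383 in iPS-MEF3-3, against 0.882 in ES, and did not pass limma.

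Other pluripotency genes were well above background in both clones, at levels from near that of ES to 3.38-fold lower. Fbxo15, the gene of the selection marker, was at 2.56 in iPS-MEF3-2 and 2.08 in iPS-MEF3-3, against 2.37 in ES, a log2 difference of -0.0387 ± 0.172 (SE, limma adjusted p = 0.898). Whether its probe reads the altered transcript was not tested. Nr0b1 (Dax1), an orphan nuclear receptor, was at 2.67 and 3.28 in iPS-MEF3-2 and iPS-MEF3-3, against 3.31 in ES. Pou5f1 was at 1.74 in iPS-MEF3-2 and 1.97 in iPS-MEF3-3, against 3.65 in ES, and fell 1.97-fold (limma adjusted p = 0.0333). Klf4 was at 9.09 and 8.44 in the clones, against 29.6 in ES, 3.38-fold lower without passing (adjusted p = 0.0552). Myc was at 0.503 and 0.525 in the clones, against 0.792 in ES, and fell 1.54-fold (limma adjusted p = 0.0312). MEF held Klf4 at 12 and Myc at 4.12, both above the clones, so their detection does not set the clones apart from fibroblasts. Pou5f1 and Fbxo15 were not well above background in MEF. A probe can also read RNA from an introduced copy of a gene, which was not tested here.

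**Figure D2:**
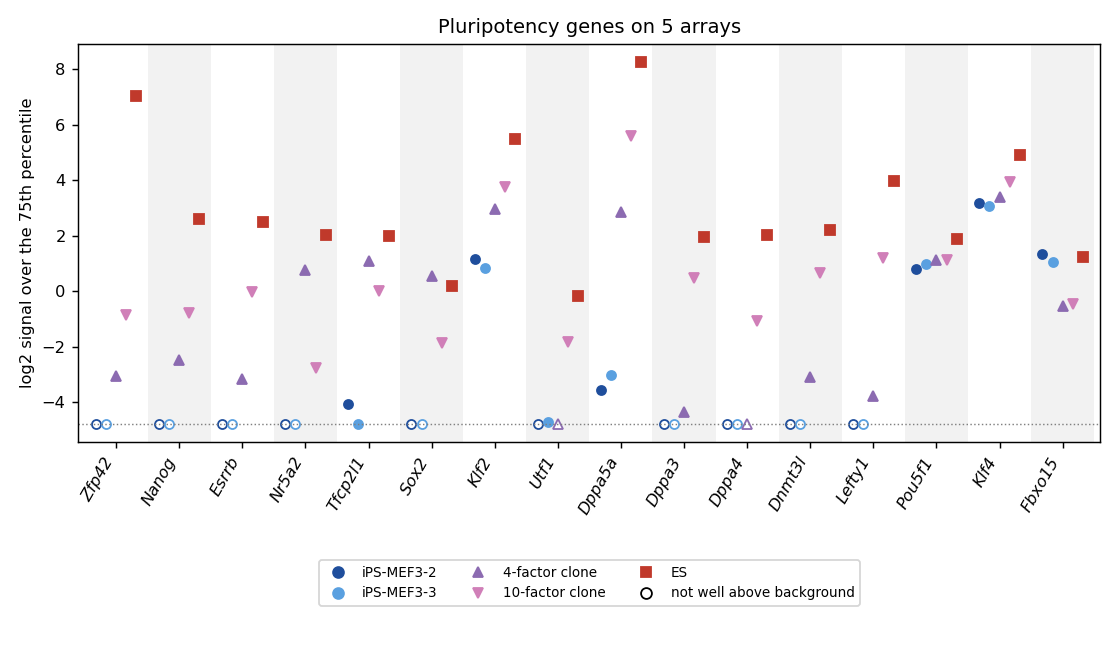
Log2 level relative to the array's 75th percentile (vertical axis) of 16 pluripotency genes in iPS-MEF3-2, iPS-MEF3-3, the 4- and 10-factor clones and ES, 1 array each. Open symbols are not well above background, and the dotted line is the floor at -4.78. The 3-factor clones lie at or near the floor for most genes and near ES for Fbxo15, with Pou5f1 at 1.74 and 1.97 times the 75th percentile in the clones, against 3.65 in ES.

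The wider set of ES cell marker genes was low in the same way: 14 of 25 measured were at least 5-fold lower, 0 were higher, the median was -3.02, and by limma 10 fell and 15 did not pass. Dppa5a (Esg1), an RNA-binding protein of pluripotent cells, was at 0.0854 in iPS-MEF3-2 and 0.124 in iPS-MEF3-3, against 304.1 in ES, where its spot was saturated, so that it was at least 2957-fold lower (limma adjusted p = 0.04). The 4-factor clone held it at 7.16 and the 10-factor clone at 48.5. Dppa3 (Stella) and Dppa4, early embryo and germ line genes, were not well above background in either clone and were at least 163-fold and 169-fold lower than ES. Ooep, part of the oocyte's subcortical complex, was at least 427-fold lower and fell (limma adjusted p = 0.00543), as did the tumour antigen gene Trap1a, at least 264-fold lower. Both genes were at the floor in both 3-factor clones. The 4- and 10-factor clones had Ooep at 1.97 and 1.88, and its small p-value reflects how close these are. Alpl, the alkaline phosphatase used to stain ES colonies, was at 0.258 and 0.35 in iPS-MEF3-2 and iPS-MEF3-3, against 4.12 in ES, and fell 13.7-fold.

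Tdh, threonine dehydrogenase, a mitochondrial enzyme on which mouse ES cells depend, was at 30.5 in iPS-MEF3-2 and 33.5 in iPS-MEF3-3, against 56 in ES, and was not well above background in MEF. Its difference from ES did not pass (limma adjusted p = 0.655). Nup210, a nuclear pore protein, was at 5.58 and 6 in the clones, against 5.03 in ES, and also was not well above background in MEF. Gldc, the glycine-cleaving enzyme of the same metabolic route as Tdh, was at 0.285 and 0.622 in iPS-MEF3-2 and iPS-MEF3-3, against 5.39 in ES. Across 19 genes of threonine, glycine and one-carbon metabolism the median difference was -0.00971, with 2 lower (10.5%) and 1 higher (5.26%). With so few genes these counts are not read as a difference from all named genes.

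Of the 7 markers of pluripotent cells, 3 were well above background in iPS-MEF3-2 and 4 in iPS-MEF3-3, against 7 in ES. Their summed level was 4.41 in iPS-MEF3-2 and 4.23 in iPS-MEF3-3, against 449 in ES. The sum in ES is carried by Dppa5a at 304.1, a saturated spot and so a lower bound, and Zfp42 at 130.7. The sum was 11.8 for 4 factors and 53.1 for 10 factors, clones which share the ES array as their comparison. All 7 were thus measured in ES, as its label says, while in the 3-factor clones Pou5f1, Fbxo15 and Dppa5a were well above background and Nanog, Sox2 and Zfp42 were not. Dppa5a was also well above background in MEF, at 0.0796, near its levels of 0.0854 and 0.124 in iPS-MEF3-2 and iPS-MEF3-3. Its detection in the clones is therefore no more than that in fibroblasts. The values are from whole cultures, in which fewer cells of a type and less RNA per cell cannot be told apart.

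Genes of the signalling pathways that act on ES cells stood apart in both directions. Of 38 measured members of the Nodal, Bmp, Fgf, Wnt and Lif pathways, 12 were lower and 4 higher (median -1.07), and by limma 9 fell and 1 rose. Among ligands of the Nodal branch, Lefty1, a secreted Nodal inhibitor, was not well above background in either clone, against 15.8 in ES, at least 663-fold lower. Lefty2 was at least 75.6-fold and Nodal itself at least 31.1-fold lower, and none of these 3 passed limma. The 4-factor clone held Lefty1 at 0.0733 and the 10-factor clone at 2.29. Bmp4 fell 5.66-fold. Of the receptors, Fgfr4 was at least 15.6-fold lower and fell, and Kit, the stem cell factor receptor, was 8.47-fold lower. Socs3, a feedback target of Lif and Stat3, was at 6.48 in iPS-MEF3-2 and 7.43 in iPS-MEF3-3, against 22 in ES, and fell 3.17-fold.

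The Id genes, targets of Bmp signalling that block basic helix-loop-helix factors, stood on the high side. Id1 was at 74.6 in iPS-MEF3-2 and 75.4 in iPS-MEF3-3, against 5.36 in ES, 14-fold higher (limma adjusted p = 0.0544). Id2 was 8.77-fold higher and Id3 rose 6.96-fold, with Id3 at 6.03 and 6.24 in the clones, against 0.88 in ES. Dusp4, a phosphatase of MAP kinases, was at 13.4 and 11.6 in the clones, against 1.64 in ES.

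Germ cell and meiosis genes, part of which ES cells transcribe, were low in the clones where they were measured. Of 27 on the array 21 were measured, 15 of them well above background in ES alone, which could therefore only come out lower. Of the 21, 13 were at least 5-fold lower and 0 higher, with a median of -3.08, and by limma 13 fell. Some are also on other lists. Promoters of Sycp3, Ddx4, Stk31 and Mael are shown because these genes were not well above background in either clone and their promoters hold CACGTG (capitals), the palindromic E-box that Myc, Max and related factors bind. They lie at chr10:88459337-88459586, plus strand for Sycp3, chr13:112652311-112652560, minus strand for Ddx4, chr6:49395289-49395538, plus strand for Stk31 and chr1:166238745-166238994, minus strand for Mael (RefSeq, GRCm38.p6, 250 bases before the start).
Sycp3: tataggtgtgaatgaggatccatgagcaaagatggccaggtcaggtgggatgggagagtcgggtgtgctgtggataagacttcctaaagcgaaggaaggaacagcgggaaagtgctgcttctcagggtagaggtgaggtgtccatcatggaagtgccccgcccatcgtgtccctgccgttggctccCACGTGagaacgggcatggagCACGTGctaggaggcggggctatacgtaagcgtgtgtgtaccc
Ddx4: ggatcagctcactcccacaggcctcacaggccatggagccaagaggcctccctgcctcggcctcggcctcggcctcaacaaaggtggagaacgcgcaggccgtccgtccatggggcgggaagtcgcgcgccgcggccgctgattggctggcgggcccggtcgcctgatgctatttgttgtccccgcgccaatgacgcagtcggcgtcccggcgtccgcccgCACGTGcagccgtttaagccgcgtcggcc
Stk31: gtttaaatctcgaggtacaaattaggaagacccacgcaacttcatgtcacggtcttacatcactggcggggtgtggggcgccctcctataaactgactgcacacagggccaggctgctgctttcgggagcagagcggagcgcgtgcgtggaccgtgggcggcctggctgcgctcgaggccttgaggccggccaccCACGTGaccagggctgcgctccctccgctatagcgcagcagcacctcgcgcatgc
Mael: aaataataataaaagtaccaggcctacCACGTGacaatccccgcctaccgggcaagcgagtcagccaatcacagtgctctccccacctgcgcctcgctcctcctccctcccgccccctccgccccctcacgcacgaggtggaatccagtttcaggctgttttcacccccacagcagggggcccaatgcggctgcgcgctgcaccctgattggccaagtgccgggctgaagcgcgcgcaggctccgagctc
With Zp3, 5 of 9 lower germ cell genes that had a promoter in the table hold CACGTG (55.6%), against 10.9% of 403 lower genes, 5.61% of 196 higher genes and 6.86% of all genes in the table. This motif too was chosen with the promoters in view, and says nothing of binding.

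Outside this list, Stra8, a retinoic acid target at the entry into meiosis, was at 9.77 in ES and at least 403-fold lower in the clones, without passing limma (adjusted p = 0.0567). Tex19.1, which restrains transposons in the germ line, was at 0.0748 in iPS-MEF3-2 and 0.156 in iPS-MEF3-3, against 10.3 in ES. Smc1b, a cohesin of meiosis, was at least 43.7-fold lower and fell, with Sycp3, of the synaptonemal complex, at least 10.1-fold and the recombinase gene Dmc1 at least 8.33-fold lower. Ddx4 (Vasa), a helicase of germ cells, was at least 40.3-fold lower without passing. Aurkc, the aurora kinase of germ cells, was at 0.0705 and 0.0924 in iPS-MEF3-2 and iPS-MEF3-3, against 12.8 in ES, and fell 158-fold (limma adjusted p = 0.0335). Of the X-linked homeobox genes of the Rhox cluster, Rhox6 and Rhox9 fell, at least 29.1-fold and 51.1-fold lower, while Rhox5 was at 10 in iPS-MEF3-2 and 38.2 in iPS-MEF3-3, around its ES level of 19.5.

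The 3 de novo DNA methylation genes were all at least 5-fold lower. Dnmt3l, the cofactor of the de novo methyltransferases, was not well above background in either clone, against 4.63 in ES, at least 194-fold lower. Dnmt3a was at 0.0705 in iPS-MEF3-2 and 0.0809 in iPS-MEF3-3, against 2.17 in ES (28.8-fold lower), and Dnmt3b at 0.179 and 0.212 in the clones, against 2.85 in ES (14.6-fold lower). None of the 3 passed limma (adjusted p between 0.0787 and 0.212). Dnmt1, the maintenance enzyme, was at 3.68 and 4.94 in the clones, against 3.54 in ES. Tet1, which oxidises methylcytosine, was 7.88-fold lower. Of 27 measured genes of DNA methylation and Polycomb, 4 were lower and 1 higher, Cbx8, a Polycomb subunit, at least 8.43-fold. Among imprinted genes, 5 of 22 were lower and 1 higher: Igf2 was at least 77.3-fold lower than its ES level of 1.84 and fell, Sgce fell, at 0.0122 in iPS-MEF3-2, where it was not well above background, and 0.0444 in iPS-MEF3-3, against 1.03 in ES, and the paternally expressed Peg3 stood at 1.09 and 1.21 in iPS-MEF3-2 and iPS-MEF3-3, against 0.0743 in ES.

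**Figure D3:**
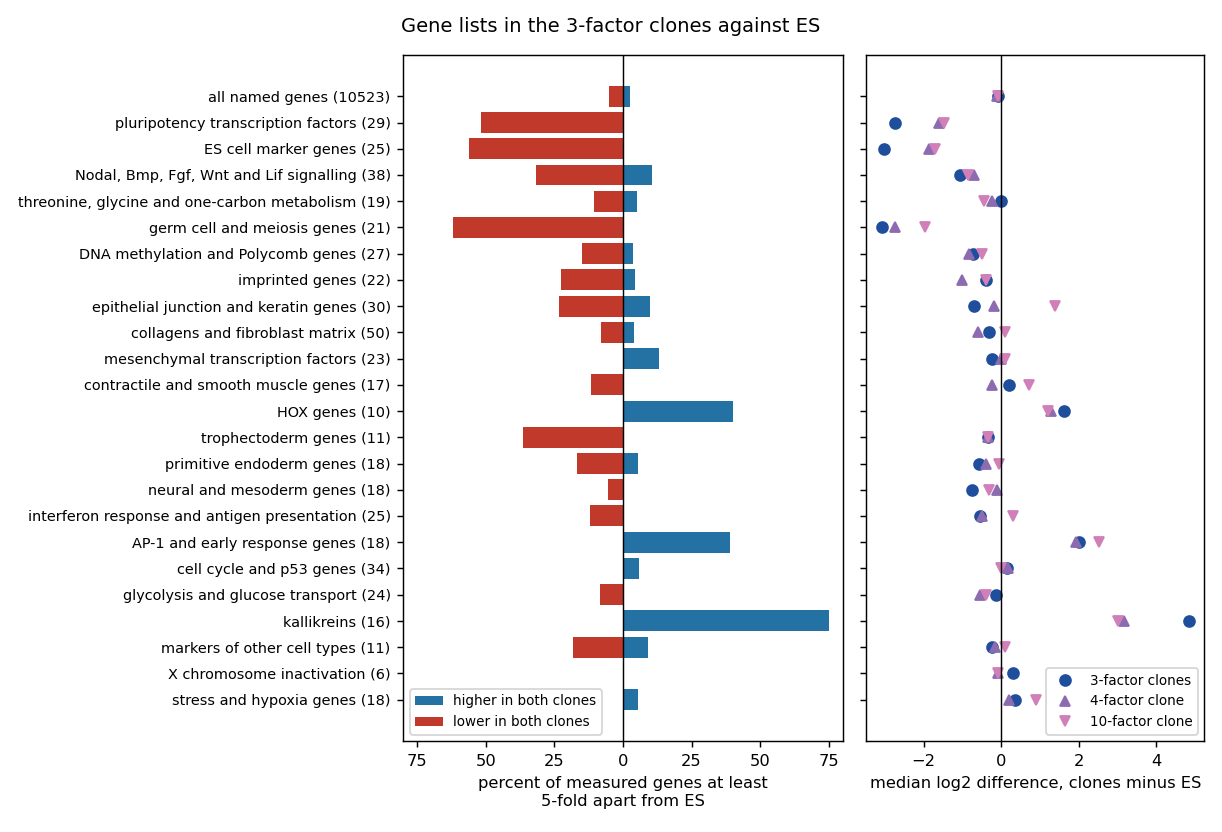
Left, percent of the measured genes of each list (number in brackets) at least 5-fold higher (right of 0) or lower (left of 0) in both 3-factor clones than in ES. Right, median log2 difference from ES of each list in the 3-factor clones, the 4-factor clone and the 10-factor clone, all against the same ES array. Pluripotency, ES marker and germ cell lists have medians between -3.08 and -2.73 in the 3-factor clones, and kallikreins have 4.85.

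The high side was led by an amino acid transporter. Slc38a5, a glutamine and serine transporter, was at 206.5 in iPS-MEF3-2 and 208.5 in iPS-MEF3-3, where 1 of the 2 spots was saturated, against 0.153 in ES, and rose at least 1354-fold (limma adjusted p = 0.00627). The 4-factor clone held it at 13.1 and the 10-factor clone at 17.7. Eya2, a transcriptional cofactor and phosphatase, was at 18.9 and 15.9 in iPS-MEF3-2 and iPS-MEF3-3, against 0.0999 in ES (174-fold higher, limma adjusted p = 0.0526), with 0.313 and 1.49 in the 4- and 10-factor clones. Gcnt3, an enzyme that branches mucin-type glycans, was at least 248-fold higher, and the sialyltransferase gene St3gal6 at least 228-fold higher, of which the second rose (limma adjusted p = 0.00929). Lama4, a laminin chain of basement membranes, was at 4.93 in iPS-MEF3-2 and 4.63 in iPS-MEF3-3, against 0.0528 in ES, and rose 90.5-fold. Tmem45a rose 72.9-fold, Lrmp 51.5-fold, the neutrophil chemokine gene Cxcl1 51.5-fold and the annexin gene Anxa8 50.9-fold, with Anxa8 at 71.4 and 66.5 in the clones, against 1.35 in ES.

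Many of the higher genes were also above the level in MEF. Of the 265 named genes higher than in ES, 132 were also at least 5-fold above MEF in both clones (49.8%). Another count, of genes not well above background in MEF, was 78 (29.4%). Over all 10523 measured genes these shares were 3.16% and 13.7%. These genes were chosen for being high on the same clone arrays, so the counts are a description. Slc38a5, Gcnt3 and Lrmp were not well above background in MEF. Of the 544 lower genes, 268 were not well above background in MEF (49.3%, beside 13.7% of all measured genes).

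Kallikreins, secreted serine proteases encoded in a cluster on chromosome 7, were higher together: 12 of 16 measured genes were at least 5-fold higher, 0 were lower, and the median was 4.85. Of the 16, 3 were measured through the clones alone and could only come out higher, and 2 through ES alone. The 12 were Klk1 and 11 genes of the Klk1b subfamily, while Klk4, Klk7, Klk8 and Klk10 were not called. Klk1b5 was at 37.9 in iPS-MEF3-2 and 12.3 in iPS-MEF3-3, against 0.398 in ES, and Klk1 at 28.2 and 10 in the clones, against 0.446 in ES. Every one of the 12 was brighter in iPS-MEF3-2 than in iPS-MEF3-3. By limma 5 of the 16 rose and 1, Klk8, fell, with Klk1b7-ps at 41.4-fold (adjusted p = 0.043). The genes are near-identical copies, the probes of Klk1, Klk1b11, Klk1b21 and Klk1b24 also carry accessions of other kallikreins, and how far probes read each other's RNA was not tested, so the 12 are not 12 separate observations. None of the 12 was well above background in MEF.

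Genes of the immediate early response, transcription factors switched on within minutes by serum or stress, were higher in both clones: 7 of 18 measured were at least 5-fold higher, 0 were lower, the median was 2.01, and by limma 9 rose and 0 fell. Of the 18, 3 were measured through the clones alone and could only come out higher, and 0 through ES alone. Nr4a1 (Nur77), an orphan nuclear receptor, was at 112 in iPS-MEF3-2 and 78.1 in iPS-MEF3-3, against 3.48 in ES, and rose 26.8-fold (limma adjusted p = 0.0234). Of the AP-1 subunits, Fosb rose at least 42.2-fold and Fos at least 19.7-fold from probes not well above background in ES. Jun was at 2.46 and 2.41 in the clones, against 0.288 in ES, and rose 8.44-fold, Junb 3.67-fold and Jund 2.98-fold. Atf3, Egr2 and Ccn1 rose too, and Ier2 did not pass. The 4- and 10-factor clones were high in the same genes, with Fosb at 1.74 and 1.05 and Nr4a1 at 32.8 and 23.1. The handling of each culture before harvest is not stated in the labels, and its part in these values was not tested. The promoter of Fos is shown with TGACGT in capitals, the core of the cAMP response element (chr12:85473640-85473889, plus strand, RefSeq, GRCm38.p6).
Fos: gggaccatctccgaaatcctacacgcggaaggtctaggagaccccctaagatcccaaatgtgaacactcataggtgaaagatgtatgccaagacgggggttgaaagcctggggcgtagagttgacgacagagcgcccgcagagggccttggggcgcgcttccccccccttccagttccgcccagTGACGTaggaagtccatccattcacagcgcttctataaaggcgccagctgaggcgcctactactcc
Of the 7 higher early genes, 4 hold TGACGT in the 250 bases before a start (57.1%), against 7.29% of all genes in the table, again for a motif chosen with the promoters in view. None of the 3 motifs contains another.

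**Figure D4:**
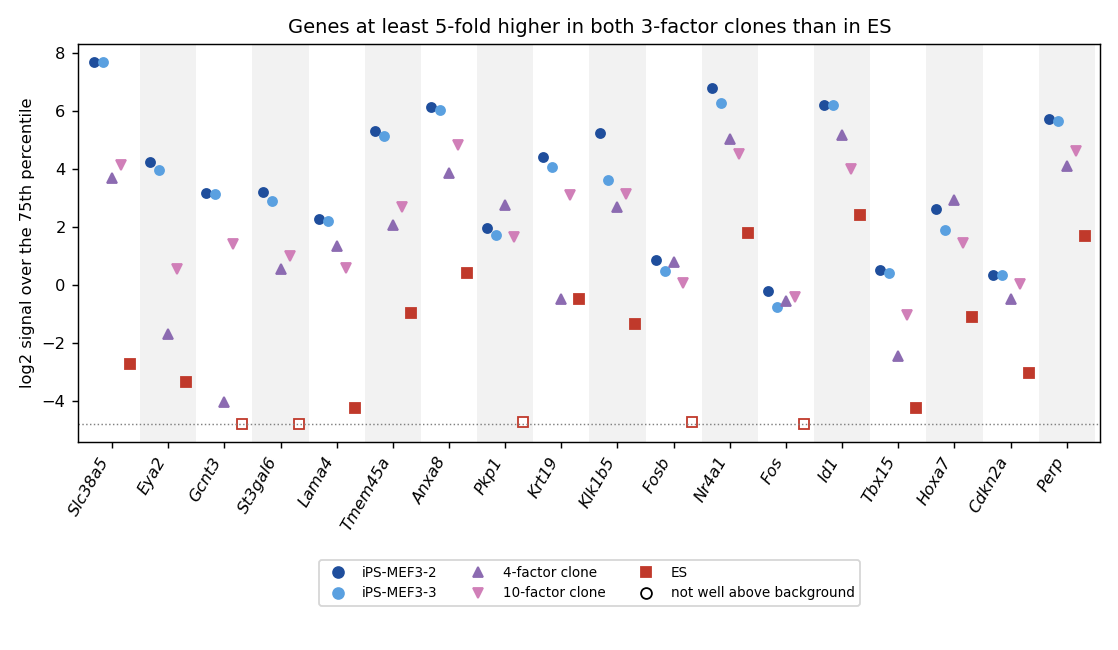
Log2 level relative to the array's 75th percentile (vertical axis) of 18 genes at least 5-fold higher in both 3-factor clones than in ES, in iPS-MEF3-2, iPS-MEF3-3, the 4- and 10-factor clones and ES, 1 array each. Open symbols are not well above background and the dotted line is the floor at -4.78. Slc38a5 reaches 206.5 and 208.5 times the 75th percentile in the 3-factor clones.

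HOX genes, which set position along the body axis, stood on the high side: 4 of 10 were at least 5-fold higher, 0 lower, with a median of 1.62. Of the 10, 3 were measured through the clones alone and could only come out higher, and 1 through ES alone. All 4 higher genes belong to the Hoxa cluster on chromosome 6. Hoxa7 was at 6.25 in iPS-MEF3-2 and 3.76 in iPS-MEF3-3, against 0.468 in ES, and MEF held it at 8.36. Hoxa10 was 14.4-fold, Hoxa9 at least 8.17-fold and Hoxa4 5.7-fold higher, of which Hoxa4 rose (limma adjusted p = 0.00873), and so did Hoxa5, by 3.21-fold. Of 23 mesenchymal transcription factors, 3 were higher (13%, beside 2.52% of all named genes) and 0 lower, although the median was -0.228. Tbx15, a T-box factor of mesenchyme, was at 1.44 and 1.36 in iPS-MEF3-2 and iPS-MEF3-3, against 0.0537 in ES (26-fold higher), with Runx2, a bone lineage factor, 5.96-fold and Id4 5.58-fold higher, none of the 3 passing limma.

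Collagens and other matrix genes of fibroblasts were far below MEF and near ES. Of 50 measured collagen and matrix genes, 2 were higher and 4 lower than in ES, with a median of -0.323, whereas the median of MEF against the same ES array was 3.45. The shares called, 4% and 8%, were near the 2.52% and 5.17% of all named genes. Col1a1, the main fibrillar collagen, was at 0.417 in iPS-MEF3-2 and 0.336 in iPS-MEF3-3, against 0.376 in ES and 58 in MEF. The summed level of 9 fibroblast markers was 14.9 in iPS-MEF3-2 and 10.7 in iPS-MEF3-3, against 14.8 in ES and 489 in MEF, and all 9 were well above background in the clones and in ES. The ES culture held STO feeders, and the part of any feeder RNA in these values was not tested. Fbn1, a microfibril protein, rose 5.8-fold, and Nid2, a basement membrane protein, was 11.1-fold lower.

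Epithelial genes were split. Of 30 measured junction and keratin genes, 7 were lower and 3 higher (median -0.71), and by limma 3 fell and 1 rose. Cdh1 (E-cadherin) was at 2.71 in iPS-MEF3-2 and 2.89 in iPS-MEF3-3, against 7.63 in ES, a difference that missed the threshold (limma adjusted p = 0.502), and in MEF it was not well above background. Epcam, an adhesion molecule of epithelia and ES cells, was at 0.831 and 0.867 in the clones, against 6.41 in ES, and fell 7.55-fold (limma adjusted p = 0.037). On the other side, Pkp1, a desmosome plaque protein, rose at least 95.1-fold, and the keratin gene Krt19 was at 21.4 and 16.8 in iPS-MEF3-2 and iPS-MEF3-3, against 0.728 in ES. Krt20, which is not on the list, was at least 78.8-fold higher, at 3.01 and 3.23 in the clones. The 4- and 10-factor clones had Krt19 at 0.712 and 8.68 and Krt20 at 0.048 and 0.965, so that the 10-factor clone was also above ES in both.

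Markers of lineages that appear when ES cells differentiate differed in how many were detected. Of 4 trophectoderm markers, 0 were well above background in iPS-MEF3-2, 1 in iPS-MEF3-3 and 1 in ES, and Cdx2 in none of the 3. Of 6 primitive endoderm markers, 2 were well above background in each clone and 3 in ES, with Afp in none. Of 6 macrophage markers, 1 was well above background in each clone, Cd68, and 2 in ES. Of 4 muscle markers only Des was above background in these samples. All 3 neural markers were well above background in both clones, and 2 of them in ES. Pax6 was at 0.975 in iPS-MEF3-2 and 1 in iPS-MEF3-3, against 0.38 in ES, and Tubb3 at 0.36 and 0.894 in the clones, against 3.16 in ES. Sox1 was at 0.0306 and 0.0725 in the clones, against 0.035 in ES, where it was not well above background. None of the 3 passed limma. Lists of wider membership gave 4 lower and 0 higher of 11 trophectoderm genes, 3 and 1 of 18 primitive endoderm genes, 1 and 0 of 18 neural and mesoderm genes and 2 and 1 of 11 markers of other cell types. Over all named genes 5.17% were lower and 2.52% higher, and the neural and mesoderm share of 5.56% lower was near that. With lists this small the counts are not read as a difference. In the trophectoderm list the 4 were Rhox6, Rhox9, Bmp4 and Tfap2c, an AP-2 factor also active in germ cells, which fell 24.9-fold.

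Among genes of the cell cycle and of p53, by limma 5 rose and 5 fell. Of 34 measured cell cycle and p53 genes, 2 were higher and 0 lower (median 0.144): Cdkn2a, which encodes the p16 and Arf tumour suppressors, was at 1.29 in iPS-MEF3-2 and 1.28 in iPS-MEF3-3, against 0.122 in ES, and rose 10.5-fold (limma adjusted p = 0.0238). Perp, a p53 target of the cell surface, was at 53.5 and 51.2 in the clones, against 3.27 in ES, and rose 16-fold. Pcna, the replication clamp, was at 38.5 and 51.2 in the clones, against 35.6 in ES, without passing limma. The 5 that fell were Mcm2, Mcm3 and Mcm5 of the replicative helicase, Top2a and Trp53. Of 18 stress and hypoxia genes 1 was higher, Atf4, the factor of the integrated stress response, which rose 7.11-fold, and its target Asns, asparagine synthetase, rose 1.85-fold. Of 25 interferon response genes 3 were lower (12%, beside 5.17% of all named genes) and 0 higher, too few to read as a difference. Among them Ifitm1 was at 0.776 in iPS-MEF3-2 and 0.538 in iPS-MEF3-3, against 23.4 in ES, and fell 36.2-fold (limma adjusted p = 0.0152). It was at 16.5 in the 4-factor and 18.2 in the 10-factor clone. Of 24 glycolysis genes 2 were lower, and of 17 contractile genes 2, beside 5.17% of all named genes, and with so few genes these counts are not read as a difference.

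The clones differed from each other in few genes. Of 12160 probes well above background in at least 1 clone, 16 were at least 5-fold apart (0.132%), 13 higher in iPS-MEF3-3 (0.107%) and 3 lower (0.0247%). Among 9876 named genes 12 were apart (0.122%), 11 higher in iPS-MEF3-3 (0.111%) and 1 lower (0.0101%). There is 1 array for each clone and no test. Xist, which silences an X chromosome in female cells, was at 2.62 in iPS-MEF3-3 and 0.00786 in iPS-MEF3-2, where it was not well above background, as in ES. Mdk (midkine), a growth factor, was at 5.79 in iPS-MEF3-3 and 0.255 in iPS-MEF3-2, and the keratin gene Krt17 at 1.21 and 0.0714 in the same order. Kcnk1, a potassium channel, was at 0.59 in iPS-MEF3-3 and 0.0969 in iPS-MEF3-2 (6.089-fold). Zfp536, a zinc finger gene, was at 0.335 and 0.0367 in the same order. Zic1, Plbd1 and Sytl2 were at 0.29, 0.227 and 0.199 in iPS-MEF3-3 and below the floor of the scale in iPS-MEF3-2, where Plbd1 and Sytl2 were not well above background. Rec8, a cohesin of meiosis, was the 1 named gene on the other side and was picked after its value was seen, at 0.823 in iPS-MEF3-3 and 4.45 in iPS-MEF3-2, beside 5.2 in ES. Of 6 measured genes of the list on X inactivation 0 were apart from ES in both clones. Xist is not among the 6, since it was well above background in only 1 clone and not in ES. A rule on both clones could not call it.

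**Figure D5:**
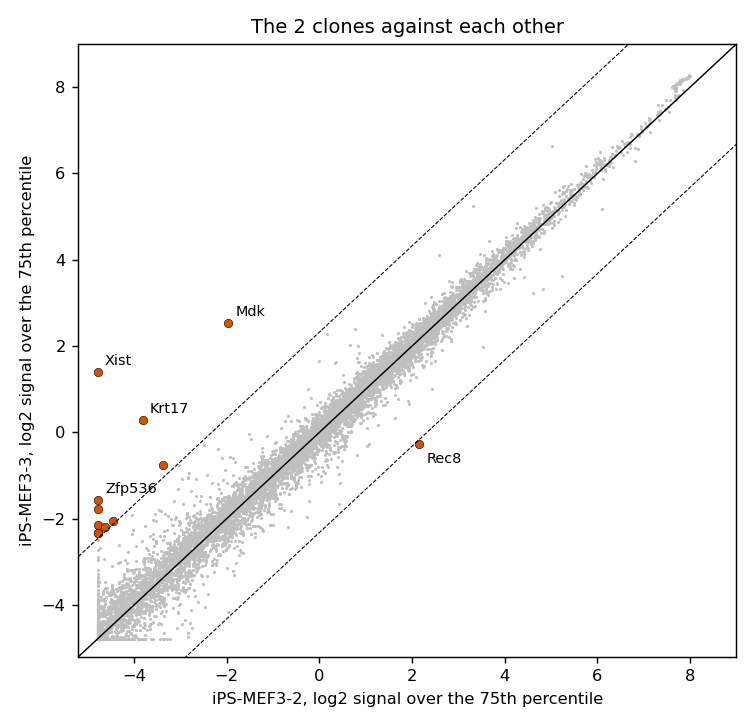
Log2 level of each named gene in iPS-MEF3-3 (vertical axis) against iPS-MEF3-2 (horizontal axis), relative to the array's 75th percentile, floor at -4.78. Dashed lines mark a 5-fold difference and filled orange points the 12 named genes beyond it, of which Xist lies farthest.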

How the data were processed

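RNA of 9 mouse samples was labelled with Cy3 and hybridised once each to single-colour arrays, per the labels. The values used are each spot's deposited intensity, a processed signal with background already subtracted, which Feature Extraction 8.5.1.1 wrote, per the file headers. A value table of the whole series repeated this intensity within 0.5% and was an alternative.

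The 736 control spots and outlier spots were left out, and repeated spots of a probe were averaged (20868 probes). Each array was divided by its 75th percentile, set to a floor at 3.63% of it (-4.78 as log2; 39.8% to 46% of probes on the 3 arrays) and log2 was taken. Probes were named through RefSeq accessions, RIKEN clone names or the deposited descriptions: 16419 probes of 15676 genes, with 4449 unnamed. A gene with several probes is its brightest; among 340 genes with over 1 measured probe, 0 had probes called in opposite directions. limma 3.58.1 (R 4.3.3; lmFit, eBayes, two-sided, Benjamini-Hochberg, 0.05) kept probes that passed the background call on 50% or more of the 3-factor or ES arrays. The fit was tested on simulated data to which no floor was applied, so that test does not cover probes at the floor. The number of arrays limits the precision.

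Scan sessions came from the file headers. Alternatives changed the scaling, background, floor, filter, fold, arrays in the fit and clones included. The members and the 23 gene lists were chosen with earlier results of these data known. Named genes were the 12 largest differences on each side above background on all 3 arrays, the 8 brightest with a bound on each side, list members past 5-fold with up to 4 others, core factors and cell type markers, and the 8 most different between the clones.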

Additional observations from a re-analysis of the deposited data

How the results depend on the processing

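The 941 probes at least 5-fold apart (320 higher, 621 lower) kept within 1.5 times under the value table, quantile normalization and a doubled floor. With a looser filter or none the count stayed at 941, so the filter had no effect on it. Either clone alone gave 1032 to 1104 (higher 372 to 396, lower 660 to 708). These sets hold all 941 by construction, since the rule on both clones is stricter. Median scaling gave 533 higher and 407 lower. Normexp background correction, with an offset of 50 that compresses dim signals, gave 228 (89 and 139), a floor 4 times lower 1615 (497 and 1118), a 3-fold rule 1915 (769 and 1146) and a 10-fold rule 422 (122 and 300). Quantile normalization gave 41.9% of calls on the high side, against 34%. The 2609 limma calls (1024 higher, 1585 lower) became 1623 higher and 869 lower with median scaling, 1052 lower with the floor 4 times lower, 1090 (312 and 778) over all 9 arrays, 1737 (462 higher) with no filter and 1490 (674 lower) without probes at the floor. Leaving out iPS_3F replicate 2 or 3 gave between 0 and 0 limma calls, higher and lower alike, with 3152 and 3330 at an unadjusted p under 0.05, and averaging the clones gave 0 (0 higher, 0 lower), with 3215; these fits lose the residual degree of freedom that the close pair gives. The 16 probes apart between the clones became 3 with normexp, 68 with the floor 4 times lower, 8 with a doubled floor and 61 at 3-fold. Median scaling moved the median of all genes by 0.519 and normexp by -0.107 on the log2 scale; relative to it, the pluripotency, ES marker, germ cell, signalling, kallikrein, early response and HOX medians kept their sign under all 6 alternatives of scaling, background, source and floor. For each of 197 named genes 10 alternatives were run. Of the values, 1527 kept their side of the limma threshold (or, untested, moved by less than the spread), 240 lost the limma call, 184 gained it and 19 moved by more than the spread. No called difference changed sign. The sign of differences not called was not checked, and that of Fbxo15 went from -0.0387 to 0.111 with iPS-MEF3-2 alone. Leaving out genes of chromosomes 8 and 11 was added after the data were seen. No paired analysis was possible because the clones' numbers are clone names and ES has no matching number. Dim genes have only bounds.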
